A study of Mus musculus with 20 samples.

Results

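Expression of 6 genes was followed in the mouse heart, 5 that encode secreted factors (Bmp10, Adm, Angpt1, Clu and Dkk3) and Mybphl, which encodes a sarcomere protein. They are the 6 of 26440 genes in the deposited expression table that carry these symbols, and each symbol matched 1 row. Messenger RNA was measured by SMART-Seq2 sequencing in 20 libraries from C57BL/6N mice, either labelled MyHC-Creld1 KO (knockout) or wild-type. In the knockout Creld1, a gene linked to septal defects of the heart, was deleted in the myocardium, so that bulk tissue also holds cells in which it was not targeted. The label names MyHC, myosin heavy chain, as the driver without saying which one. P3 atria came from 3 knockout and 3 wild-type pups at postnatal day 3, and P3 ventricles were labelled with the same 6 pups of 3 litters. Whole E13.5 hearts came from 4 knockout and 4 wild-type embryos of 3 litters. Libraries of 1 replicate number were labelled with the same litter in both genotypes, E13.5 replicates 2 and 3 sharing 1 litter, and P3 libraries of 1 pup were labelled with the same animal. All values below are the authors' normalized signal on a linear scale, called signal, unless a difference of log2(signal + 1) is named.

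Atrial muscle cells are secretory as well as contractile. BMP10 is a ligand of the transforming growth factor beta family that atrial cardiomyocytes release and that endothelial cells sense through the receptor ALK1 (Acvrl1). Adrenomedullin (Adm) is a vasodilator peptide that acts through Calcrl with a Ramp partner, angiopoietin 1 (Angpt1) stabilises vessels through the receptor Tie2 (Tek), clusterin (Clu) is an extracellular chaperone, and Dkk3 is a divergent member of the Dickkopf family of Wnt regulators. Mybphl, a relative of the thick filament protein genes Mybpc3 and Mybph, is known as an atrial myosin binding protein gene.

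In mm10, Bmp10 spans chr6:87428994-87437677, Mybphl chr3:108364911-108380057, Adm chr7:110627661-110629820 and Clu chr14:65968483-65981547, all on the plus strand. Dkk3 spans chr7:112116017-112159057 and Angpt1 chr15:42424723-42676977, both on the minus strand. Values are given per gene, and none is assigned to single exons or untranslated regions. Exons of the unnamed genes Gm17473 and Gm12522 overlap exons of Angpt1 and Mybphl on the opposite strand, and since SMART-Seq2 does not mark strand their reads cannot be told apart from those of these 2 genes.

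The 250 bases before the start of Bmp10 and Mybphl are shown because these are the 2 genes with the lowest ventricular signal and the widest gap between the chambers, and those of Adm are shown for comparison. RefSeq (GRCm38.p6) gave such a sequence for 3 of the 6 genes, at chr6:87428744-87428993 (Bmp10), chr3:108364661-108364910 (Mybphl) and chr7:110627407-110627656 (Adm), all on the plus strand, written 5′ to 3′ and free of annotated exons. Capitals mark AGATAA, a motif of GATA factors.
Bmp10: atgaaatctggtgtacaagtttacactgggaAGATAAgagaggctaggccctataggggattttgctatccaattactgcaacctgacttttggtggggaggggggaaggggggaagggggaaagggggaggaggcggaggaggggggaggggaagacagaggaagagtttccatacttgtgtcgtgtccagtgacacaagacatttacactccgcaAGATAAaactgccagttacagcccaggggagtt
Mybphl: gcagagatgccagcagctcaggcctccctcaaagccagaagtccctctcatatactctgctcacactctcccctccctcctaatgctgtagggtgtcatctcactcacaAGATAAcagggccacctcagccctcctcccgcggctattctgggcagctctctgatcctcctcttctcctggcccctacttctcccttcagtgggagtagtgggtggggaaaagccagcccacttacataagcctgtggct
Adm: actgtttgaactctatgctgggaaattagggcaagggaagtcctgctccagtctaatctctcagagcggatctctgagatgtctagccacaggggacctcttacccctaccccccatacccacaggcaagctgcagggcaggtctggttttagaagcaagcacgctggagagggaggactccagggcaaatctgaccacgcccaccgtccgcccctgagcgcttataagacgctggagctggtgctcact
AGATAA stood at 219 to 214 and at 33 to 28 bases before the start in Bmp10 and at 141 to 136 bases before it in Mybphl, and was not found in Adm, on either strand. Of 32851 windows of this length in the same table, 9.99% held it. AGGTGT, a part of the T-box site (11.8% of windows), and ACGTG, the core that hypoxia-inducible factors bind (16.6%), were found in none of the 3 windows. These motifs overlap none of the others in these windows, were chosen after the windows had been seen, and are matches of letters only.

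Estimated totals were 5138313 to 20669494 reads per library. Creld1 signal averaged 44.1 in knockout and 91.0 in wild-type atria, 43.7 in knockout and 83.8 in wild-type ventricles, and 30.3 in knockout and 63.2 in wild-type E13.5 hearts, but the libraries labelled atrial knockout replicate 2 and E13.5 knockout replicate 1 lay above their wild-type littermates. The genotypes overlapped in atria (23.1 to 82.4 in knockout and 21.6 to 146 in wild-type) and at E13.5 (4.64 to 70.9 and 34.0 to 92.2). No gene, Creld1 included, passed the genotype test given below in ventricles or at E13.5. Atrial and ventricular marker genes followed the labelled tissue, the 10 atrial markers summing to 158266 to 443295 in knockout and 84213 to 168149 in wild-type atria, against 7712 to 35618 in knockout and 4236 to 10220 in wild-type ventricles. The ventricular marker Irx4 was listed at 0 in 5 of 6 atrial libraries. Wild-type pup 2 stood apart: its atrial library held ventricular transcripts (Myl2 signal 9242, against 21.7 to 97.2 in the other atria). Its atrial and ventricular libraries differed in the sex-linked transcript Xist (2876 and 74.9) and in the summed signal of Y-linked genes (33.5 and 3223). They were labelled as 1 pup, but with these values they cannot both come from 1 animal. The atrial libraries of the third P3 litter also stood apart, with 3.55% (knockout) and 10.4% (wild-type) of signal from mitochondrially encoded genes, against 22.6 to 31.3% in the other 4 atrial libraries. Results are therefore given with and without these libraries where they change. Littermates also differed in sex-linked transcripts. E13.5 Xist signal was 38.2, 3003, 33.0 and 35.9 in knockout and 2407, 17.8, 2369 and 2670 in wild-type replicates 1 to 4. Xist also differed in P3 replicate 1 (20.4 in knockout and 3596 in wild-type atria) and in ventricular replicate 2 (2858 and 74.9). Within these pairs, which include every E13.5 pair, sex and genotype cannot be told apart.

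**Figure D1:**
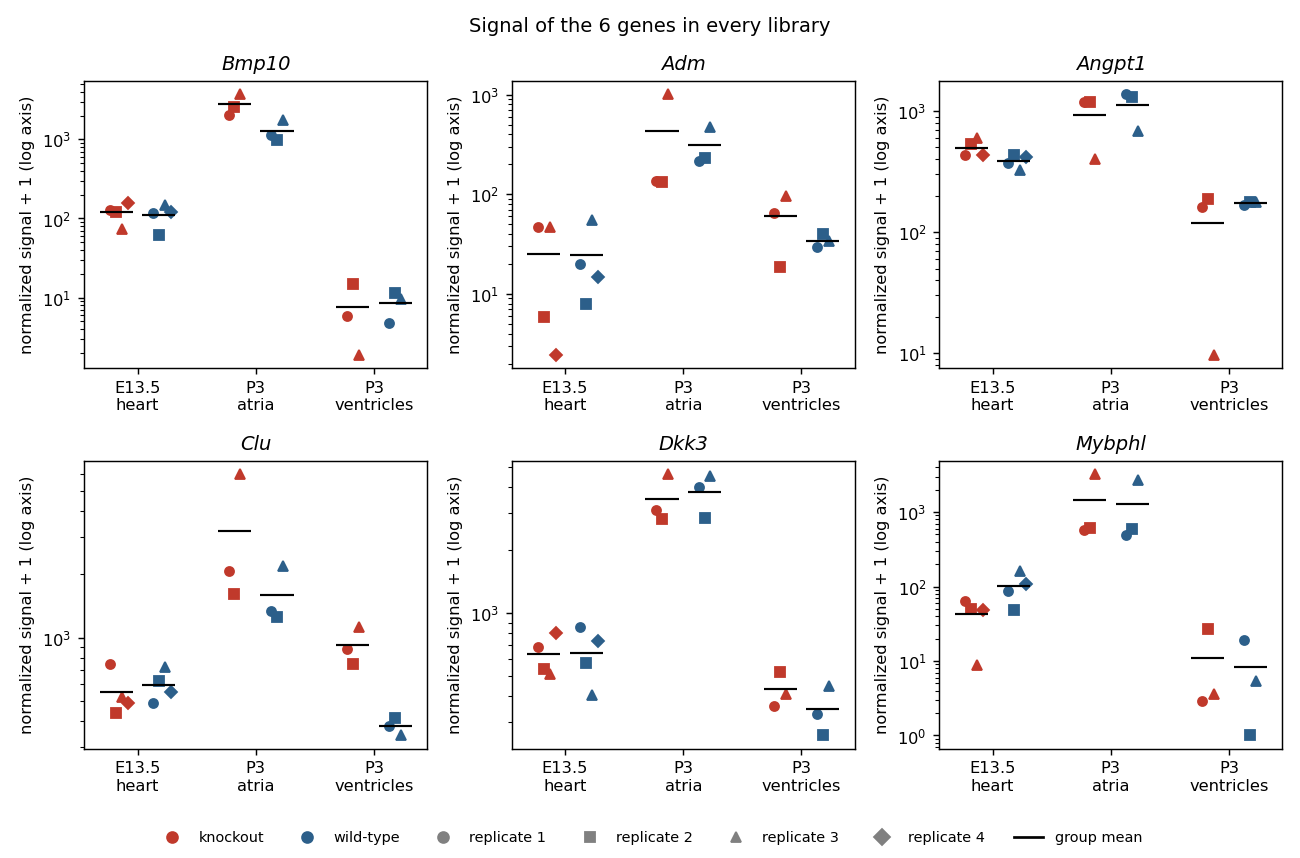
Normalized signal plus 1 (log axis) of each gene in every library, by tissue, with knockout left of wild-type, the replicate number as marker shape and the group mean as a bar. All 6 genes are higher in every atrial than in every ventricular library of the same genotype. The third atrial pair (triangles) is the highest for Adm, Clu, Dkk3 and Mybphl and the lowest for Angpt1. For Bmp10 the third atrial library is the highest within each genotype.

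The first comparison asks whether the genes were atrial in both genotypes. They were chosen as atrial-enriched genes with earlier results of these data known, so their counts between chambers are no independent test. Bmp10 signal was 2027, 2546 and 3734 in knockout atria, against 4.83, 14 and 0.871 in knockout ventricles. In wild-type pups it was 1121, 978 and 1764 in atria, against 3.76, 10.4 and 8.70 in ventricles. The ventricular values rest on 1 to 23 estimated reads per library, so that the ventricular level is known only roughly.

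Mybphl signal was 565, 604 and 3209 in knockout atria, against 1.93, 25.5 and 2.61 in knockout ventricles. In wild-type pups it was 497, 597 and 2722 in atria, against 17.9, 0 and 4.35 in ventricles. The ventricular level of this sarcomere gene was near 0 as that of Bmp10 was, again on few reads, 0 to 42 per ventricular library. Its 2 highest atrial values were both from the third litter.

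Dkk3 signal was 3097, 2820 and 4599 in knockout atria, against 358, 524 and 408 in knockout ventricles. In wild-type pups it was 3990, 2839 and 4528 in atria, against 329, 259 and 448 in ventricles. Dkk3 was measured well in both chambers, and its atrial libraries spread less than those of the other genes, with a coefficient of variation of 27.3% in knockout and 22.8% in wild-type.

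Angpt1 signal was 1176, 1178 and 401 in knockout atria, against 159, 187 and 8.63 in knockout ventricles. In wild-type pups it was 1379, 1292 and 678 in atria, against 168, 177 and 175 in ventricles. The vessel-stabilising ligand was the only gene of the 6 whose third-litter atrial libraries were the lowest, and ventricular knockout replicate 3 held almost none of it.

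Clu signal was 2077, 1613 and 5984 in knockout atria, against 877, 751 and 1127 in knockout ventricles. In wild-type pups it was 1342, 1246 and 2186 in atria, against 378, 414 and 341 in ventricles. Clusterin transcripts were plentiful in both chambers, with the narrowest gap between them.

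Adm signal was 135, 131 and 1009 in knockout atria, against 63.8, 17.6 and 94.9 in knockout ventricles. In wild-type pups it was 213, 232 and 476 in atria, against 28.2, 38.6 and 32.6 in ventricles. The adrenomedullin values of the third litter were the highest in both genotypes' atria.

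For all 6 genes the atrial and ventricular values did not overlap, in knockout as in wild-type pups. Of all 18125 genes tested, 8.79% lay wholly higher in knockout atria and 8.2% in wild-type atria. In bulk tissue, more cells of a type and more RNA per cell cannot be told apart.

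Within pups, the limma fit called Bmp10 and Dkk3 higher in atria in both genotypes, 2 of 6 genes each. Across all genes 0.199% were called in knockout pups (22 higher and 14 lower) and 0.0883% in wild-type pups (all 16 higher), in either direction. For Bmp10 the log2 difference was 8.94 (SE 0.67, limma adjusted p = 0.00313) in knockout and 7.27 (SE 0.67, adjusted p = 0.00770) in wild-type pups. For Dkk3 it was 3.01 (SE 0.31, limma adjusted p = 0.0121) in knockout and 3.46 (SE 0.31, adjusted p = 0.00766) in wild-type pups. The other 4 genes had positive differences in 6 of 6 pups as labelled, without passing the test. Mybphl stood at 7.30 (SE 1.12, limma adjusted p = 0.0581) in knockout and 7.65 (SE 1.12, adjusted p = 0.0670) in wild-type pups, with a wider standard error than Bmp10. Angpt1 stood at 3.64 (limma adjusted p = 0.0515) in knockout and 2.61 (adjusted p = 0.159) in wild-type pups. Adm stood at 2.43 and Clu at 1.58 in knockout pups (limma adjusted p = 0.187 and 0.199), and at 3.09 and 2.03 in wild-type pups (adjusted p = 0.10 and 0.103).

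The fit rests on 3 pups per genotype, and its calls move with single pups. Without wild-type pup 2, whose libraries differ in Xist, Bmp10 was at 7.69 and Dkk3 at 3.46 in wild-type pups, and neither passed limma's threshold, while both still passed in knockout pups. Without the third litter, Bmp10 passed in knockout (7.93) and Dkk3 in wild-type pups (3.52), while Dkk3 in knockout (2.77) and Bmp10 in wild-type pups (7.15) did not. In knockout pups Bmp10 also missed the threshold without pup 1, and Dkk3 without any single knockout pup (2.77 to 3.30). In wild-type pups Bmp10 also missed it without pup 1 (6.96) or pup 3 (7.15), and Dkk3 without pup 1 (3.39).

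When the chamber difference was averaged over all 6 pups, a fit chosen after the data had been seen, all 6 genes were called higher in atria. Of all genes 0.85% were called higher, and 1.45% in either direction. The log2 differences were 8.10 for Bmp10, 7.47 for Mybphl, 3.23 for Dkk3, 3.13 for Angpt1, 2.76 for Adm and 1.81 for Clu, with limma adjusted p between 0.000298 (Bmp10) and 0.0169 (Clu). Without wild-type pup 2 this fit called 3 of the 6, Bmp10 (8.32), Dkk3 (3.24) and Mybphl (7.08), against 0.463% of all genes, with Angpt1 at an adjusted p of 0.0509 in limma and Adm and Clu at 0.0541. Without the third litter it called 4, Bmp10 (7.54), Dkk3 (3.15), Angpt1 (2.85) and Clu (1.44), against 0.894% of all genes. The fit that ignores which pup a library came from called 5 of 6 in knockout pups (all but Adm), against 1.21% of all genes, and 4 of 6 in wild-type pups (Bmp10, Dkk3, Mybphl and Clu), against 1.5% of all genes.

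**Figure D2:**
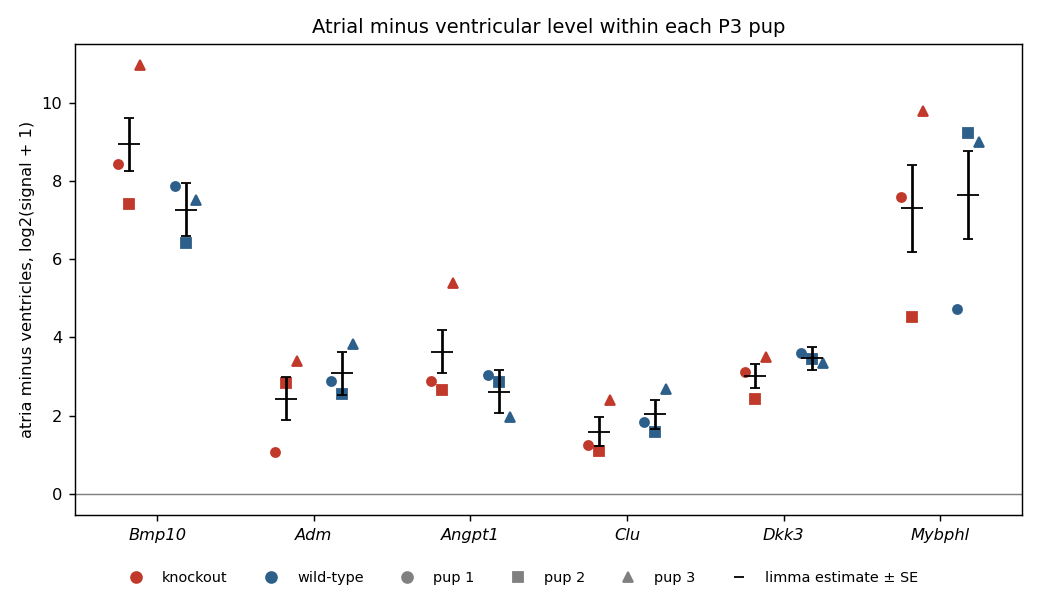
Atrial minus ventricular log2(signal + 1) within each P3 pup for the 6 genes, with knockout left of wild-type, and the limma estimate with its standard error in black. Every pup lies above 0 for every gene, Bmp10 and Mybphl have the widest gaps, and knockout pup 3 (red triangles) has the widest gap of its genotype for every gene.

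No difference between the genotypes in the gap between the chambers was detected. The difference of the knockout effect between atria and ventricles was called for 0 of 6 genes and for 0% of all genes (469 at an unadjusted p under 0.05, none of them among the 6), with limma. It was 1.67 (SE 0.95) for Bmp10, 1.02 (SE 0.76) for Angpt1, -0.35 (SE 1.58) for Mybphl, -0.45 for both Clu and Dkk3 (SE 0.52 and 0.43) and -0.65 (SE 0.78) for Adm, on the log2 scale, each with a limma adjusted p of 1. Knockout pup 3 carried much of the Bmp10 and Angpt1 values, which were 0.66 and 0.15 without it.

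Among the 6, levels were compared per kilobase of annotated exon. In knockout atria the mean signal per kilobase was 1144 ± 1188 for Mybphl, 1044 ± 285 for Dkk3, 938 ± 698 for Clu, 617 ± 195 for Bmp10, 263 ± 312 for Adm and 176 ± 86.0 for Angpt1 (SD, n = 3). In wild-type atria it was 1127 ± 257 for Dkk3, 997 ± 985 for Mybphl, 463 ± 151 for Clu, 287 ± 93.2 for Bmp10, 214 ± 73.4 for Angpt1 and 190 ± 90.6 for Adm (SD, n = 3). The gap to the next gene was wider than both SDs for Bmp10 above Adm in knockout and for Clu above Bmp10 in wild-type atria, and all other neighbours lay within at least 1 of their SDs. In ventricles the order changed, with Clu (267 ± 55.7) above Dkk3 (128 ± 25.3) in knockout, Clu (110 ± 10.6) beside Dkk3 (103 ± 28.5) in wild-type, and Bmp10 the lowest in both (1.46 ± 1.5 in knockout and 1.70 ± 0.77 in wild-type, SD, n = 3).

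The second comparison, the one the study was designed for, is knockout against wild-type within each tissue. At E13.5 the libraries of every pair differed in Xist as well as in genotype. None of the 6 genes passed limma's test in any of the 3 tissues, nor under any alternative. Across all genes 0.0276% were called in atria (4 higher and 1 lower), 0% in ventricles and 0% at E13.5, with 964, 707 and 747 genes at an unadjusted p under 0.05. Clu was the only gene of the 6 under that unadjusted level, in atria and in ventricles.

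Clu stood higher in knockout than in wild-type in all 3 P3 litter pairs, in ventricles and in atria. The 2 chambers were labelled with the same pups, so their pairs are not independent. How many of all genes moved in 1 direction in all 3 pairs was not counted. In ventricles it averaged 918 ± 191 in knockout and 378 ± 36.3 in wild-type (SD, n = 3 each), and the lowest knockout library (751) lay above the highest wild-type library (414). Of all genes, 4.97% lay wholly higher in knockout ventricles, and Clu was the 1 gene of the 6 that did, while at E13.5 the groups overlapped for all 6 (2.54% of all genes did not overlap there, in either direction). The log2 difference was 1.26 (SE 0.37, unadjusted p = 0.00275, limma adjusted p = 0.828), with knockout-over-wild-type ratios of 2.32, 1.82 and 3.30 in pairs 1 to 3. In atria Clu averaged 3224 ± 2401 in knockout and 1591 ± 517 in wild-type (SD, n = 3 each), with ratios of 1.55, 1.29 and 2.74 and a log2 difference of 0.82 (SE 0.37, unadjusted p = 0.0393, limma adjusted p = 0.906). Atrial knockout replicate 3 carried much of the atrial value, which was 0.25 without it. With the litter pairs as a replicate block, the limma adjusted p of Clu was 0.264 in ventricles and 0.323 in atria, and over all alternatives it ran from 0.0741 to 1 in ventricles and from 0.323 to 1 in atria.

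Cell type markers also differed between these ventricular groups. The 10 atrial markers summed to 15175, 7712 and 35618 in knockout and 4236, 4418 and 10220 in wild-type ventricles. They were higher in knockout in all 3 pairs, with overlap between the groups. Of these sums the natriuretic peptide gene Nppa alone made up 11104, 2713 and 31208 in knockout and 971, 645 and 5411 in wild-type. Myl4 was also higher in knockout in all 3 pairs, while Sln and Myl7 had pairs in both directions. The 6 ventricular muscle markers summed to 92863 to 103610 in knockout and 105252 to 109468 in wild-type ventricles, and the 5 sinus node and conduction markers to 489 to 521 in knockout and 263 to 415 in wild-type ventricles, without overlap. Fibroblast markers (11 genes) summed to 54080 to 69432 in knockout and 52532 to 56899 in wild-type ventricles, with overlap. Their part in the Clu values was not tested.

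Bmp10 stood higher in knockout atria than in wild-type atria in all 3 pairs, by ratios of 1.81, 2.60 and 2.12. Clu and Mybphl were also higher, and Angpt1 lower, in all 3 atrial pairs, and the share of all genes with such agreement was not counted. Bmp10 averaged 2769 ± 875 in knockout and 1287 ± 419 in wild-type atria (SD, n = 3 each), and the lowest knockout library (2027) lay above the highest wild-type library (1764). Of all genes, 3.92% lay wholly higher in knockout atria, and 7.91% did not overlap in either direction. Bmp10 was the 1 gene of the 6 without overlap in atria. The log2 difference was 1.11 (SE 0.58, unadjusted p = 0.0726, limma adjusted p = 0.974), and 0.577 was its adjusted p with the replicate block, within a range of 0.464 to 1 over all alternatives. Leaving out single libraries left it between 0.87 and 1.36, and without the third litter it was 1.12. Bmp10 averaged 6.56 ± 6.72 in knockout and 7.63 ± 3.45 in wild-type ventricles (SD, n = 3 each), a log2 difference of -0.56 that was 0.21 without ventricular knockout replicate 3. At E13.5 its signal was 128, 119, 71.6 and 157 in knockout and 116, 60.6, 146 and 120 in wild-type hearts. It averaged 119 ± 35.4 in knockout and 111 ± 36 in wild-type hearts (SD, n = 4 each), a log2 difference of 0.12 (SE 0.51).

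Cell type markers differed between the same atrial groups. Atrial markers summed to 158266 to 443295 in knockout and 84213 to 168149 in wild-type atria, with overlap. Nppa alone made up 95071 to 379853 in knockout and 32880 to 115762 in wild-type. Sln was lower in knockout (5744 to 10118) than in wild-type (9151 to 19121) in every pair. Myl4 was higher in every pair, and Myl7 had pairs in both directions. The 11 fibroblast markers summed to 62735 to 64637 in knockout and 85103 to 90010 in wild-type atria, without overlap. The 8 endothelial and endocardial markers summed to 4225 to 5357 in knockout and 3149 to 3822 in wild-type atria, and the 6 erythroid markers to 31044 to 133066 in knockout and 15580 to 18798 in wild-type atria. Irx4, a defining ventricular marker, was listed at 0 in all knockout atria and in wild-type atrial replicates 1 and 3. It was at 26.5 in wild-type replicate 2, the atrial library that held ventricular transcripts. The 6 ventricular markers summed to 3399 to 4991 in knockout and 2787 to 24371 in wild-type atria, with overlap. The part of these differences in the Bmp10 and Clu values was not tested.

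Dkk3 averaged 3506 ± 957 in knockout and 3785 ± 863 in wild-type atria (SD, n = 3 each), a log2 difference of -0.12 (SE 0.32). Its difference was 0.33 (SE 0.32) in ventricles and 0.01 (SE 0.27) at E13.5, each with a limma adjusted p of 1. All of these differences lay within about 1 standard error of 0.

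Mybphl averaged 1459 ± 1516 in knockout and 1272 ± 1257 in wild-type atria (SD, n = 3 each), a log2 difference of 0.15 (SE 1.04). Knockout was the higher in all 3 atrial pairs, by ratios of 1.14, 1.01 and 1.18. The means of both groups rest on the third litter, and the other 4 atrial libraries lay between 497 and 604. At E13.5 Mybphl signal was 62.6, 49.3, 7.76 and 47.0 in knockout and 85.2, 46.7, 161 and 108 in wild-type hearts. The groups overlapped, and 3 of 4 pairs were lower in knockout, with a log2 difference of -1.44 (SE 0.90, limma adjusted p = 1) that was -0.79 without E13.5 knockout replicate 3. In ventricles the difference was 0.49 (SE 1.04).

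Adm averaged 425 ± 506 in knockout and 307 ± 147 in wild-type atria (SD, n = 3 each), and the means hide opposite pairs: the knockout library was below its littermate in pairs 1 and 2 and above it in pair 3. The log2 difference was -0.13 (SE 1.03) in atria and 0.52 (SE 1.03) in ventricles. At E13.5 Adm signal was 45.5, 4.92, 45.7 and 1.42 in knockout and 19, 6.92, 53.5 and 13.7 in wild-type hearts, a difference of -0.51 (SE 0.89). Adm thus varied more among E13.5 libraries of 1 genotype than between the genotypes.

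Angpt1 signal at E13.5 was 433, 534, 594 and 431 in knockout and 371, 436, 326 and 415 in wild-type hearts. Knockout was the higher in all 4 pairs, yet the groups overlapped, since 431 lay below 436, and the log2 difference was 0.36 (SE 0.61, limma adjusted p = 1). In atria Angpt1 averaged 918 ± 448 in knockout and 1116 ± 382 in wild-type (SD, n = 3 each), with knockout the lower in all 3 pairs and a difference of -0.37 (SE 0.71, limma adjusted p = 1). In ventricles the difference of -1.40 (SE 0.71, limma adjusted p = 1) rests on knockout replicate 3 alone and was -0.01 without it.

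**Figure D3:**
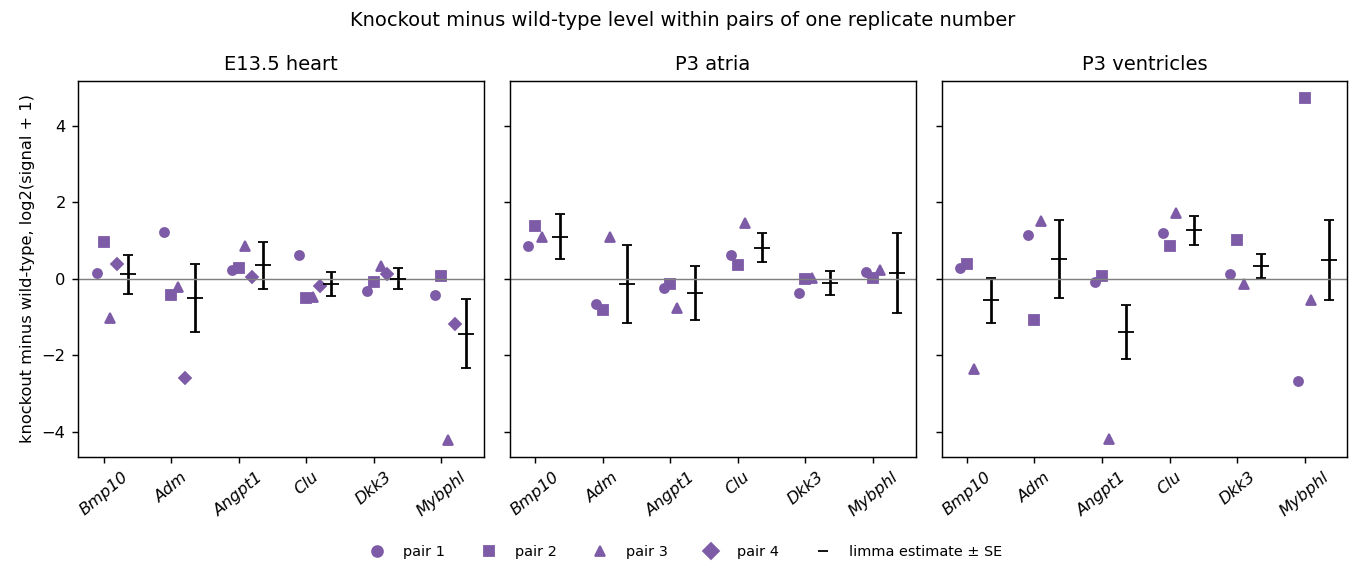
Knockout minus wild-type log2(signal + 1) of each gene within pairs of 1 replicate number in the 3 tissues, with the limma estimate and its standard error in black. Bmp10 and Mybphl lie above 0, and Angpt1 below 0, in all 3 atrial pairs. Clu lies above 0 in all 3 pairs of each P3 chamber, and the chambers share pup labels. In ventricles the 5 genes other than Clu have pairs on both sides of 0.

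The third comparison sets P3 chambers against the whole E13.5 heart of the same genotype. Stage and dissection cannot be told apart here, and both P3 chambers are set against the same E13.5 libraries. All E13.5 libraries but those of replicate 4 were also prepared in an earlier year than the P3 libraries. For them year cannot be told apart from stage either. In P3 atria against E13.5 hearts, 5 of the 6 genes were called higher in each genotype, and Angpt1 was not called. Across all genes, 1.95% were called higher in knockout and 3.11% in wild-type atria.

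Bmp10 was higher in P3 atria than in E13.5 hearts by a log2 difference of 4.54 (SE 0.55, limma adjusted p = 4.39e-05) in knockout and 3.55 (SE 0.55, adjusted p = 0.000507) in wild-type. Dkk3 was higher by 2.46 (SE 0.29, limma adjusted p = 4.39e-05) in knockout and 2.58 (SE 0.29, adjusted p = 1.93e-05) in wild-type. In E13.5 hearts Dkk3 signal was 684, 537, 511 and 799 in knockout and 860, 574, 406 and 736 in wild-type, all below the lowest atrial library. The Bmp10 and Dkk3 differences passed the test in both genotypes under all 32 alternatives run.

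Clu was higher in P3 atria by 2.34 (SE 0.35, limma adjusted p = 0.000385) in knockout and 1.38 (SE 0.35, adjusted p = 0.0214) in wild-type. Its E13.5 signal was 746, 438, 522 and 485 in knockout and 488, 624, 723 and 551 in wild-type hearts. Adm was higher by 4.31 (SE 0.96, limma adjusted p = 0.0150) in knockout and 3.93 (SE 0.96, adjusted p = 0.0179) in wild-type. Mybphl was higher by 4.92 (SE 0.98, limma adjusted p = 0.00603) in knockout and 3.34 (SE 0.98, adjusted p = 0.0484) in wild-type. Without atrial wild-type replicate 3 the Adm, Clu and Mybphl differences of wild-type no longer passed (3.57, 1.13 and 2.56), and without atrial knockout replicate 3 neither did those of Adm and Mybphl in knockout (3.33 and 4.10). Without E13.5 knockout replicate 4 the knockout Adm difference (3.49) also missed the threshold, and so did the wild-type Adm difference (3.51) with E13.5 wild-type replicate 2 left out and the wild-type Clu difference (1.29) with E13.5 wild-type replicate 1 left out. When both atrial libraries of the third litter were left out together, Adm (3.57) and Clu (1.13) in wild-type and Mybphl (4.10) in knockout passed, and Adm (3.33) in knockout and Mybphl (2.56) in wild-type did not. The wild-type Mybphl call, just under the threshold, was lost in 22 of 32 alternatives.

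Angpt1 was at 0.74 (SE 0.66, limma adjusted p = 0.658) in knockout and 1.47 (SE 0.66, adjusted p = 0.228) in wild-type P3 atria against E13.5 hearts. Without the third litter the differences were 1.25 in knockout and 1.79 in wild-type, and both passed. Without ventricular knockout replicate 3, the library nearly without Angpt1, the wild-type value of 1.47 passed too.

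P3 ventricles were lower than E13.5 hearts for Bmp10 and Angpt1 in knockout, 2 of 6 genes, against 0.954% of all genes called lower. In wild-type they were lower for Bmp10 and Mybphl, again 2 of 6, against 1.74% of all genes. Bmp10 had a log2 difference of -4.4 (SE 0.55, limma adjusted p = 5.16e-05) in knockout and -3.72 (SE 0.55, adjusted p = 0.000218) in wild-type. Mybphl was lower, with a log2 difference of -4.31 (SE 0.98, limma adjusted p = 0.0104) in wild-type and stood at -2.38 (SE 0.98, adjusted p = 0.239) in knockout, and the wild-type value was -3.20 and no longer passed without ventricular wild-type replicate 2, the library with none of it. Angpt1 was lower in knockout, with a log2 difference of -2.90 (SE 0.66, limma adjusted p = 0.0171), which was -1.51 and no longer passed without ventricular knockout replicate 3 alone. With all 4 libraries of the third litter left out it was also -1.51, and it passed. In wild-type it stood at -1.15 (SE 0.66, limma adjusted p = 0.404), a difference that passed without the third litter.

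Dkk3, Clu and Adm did not pass the test between ventricles and E13.5 hearts. Dkk3 stood at -0.55 (SE 0.29) in knockout and -0.88 (SE 0.29, limma adjusted p = 0.0952) in wild-type ventricles against E13.5 hearts, and the wild-type difference passed without the third litter (-1.08), without its 2 atrial libraries (-0.88) and under scaling by library total (-1.45). Clu stood at 0.75 (SE 0.35, limma adjusted p = 0.318) in knockout and -0.65 (SE 0.35, adjusted p = 0.359) in wild-type ventricles, and the knockout difference, unchanged at 0.75, passed without both atrial libraries of the third litter. Adm stood at 1.87 (SE 0.96, limma adjusted p = 0.392) in knockout and 0.85 (SE 0.96, adjusted p = 0.735) in wild-type ventricles. Scaling the libraries to a common total moved the median of all genes to 0.59 (knockout) and 0.61 (wild-type) in atria against ventricles and to -0.48 and -0.53 in ventricles against E13.5 hearts. Under it the 6 genes kept their direction in all of these comparisons.

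**Figure D4:**
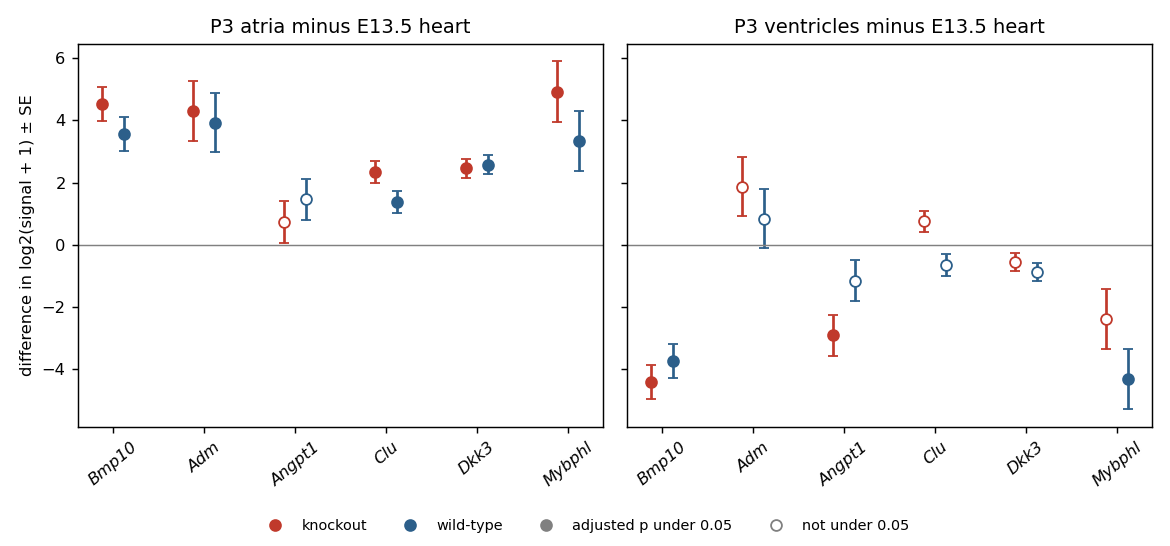
Difference in log2(signal + 1) between P3 atria (left panel) or P3 ventricles (right panel) and E13.5 hearts, ± SE, with knockout left of wild-type and filled points where the limma adjusted p is under 0.05. Bmp10 is high in atria and low in ventricles relative to the whole E13.5 heart, and Angpt1 has no filled point in the atrial panel.

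The partner genes of each pathway were read from lists. In knockout against wild-type atria, where the median log2 difference of all genes was 0, the list medians were -0.08 for BMP signalling, -0.19 for the adrenomedullin system, 0.20 for hypoxia targets, 0.14 for angiopoietin and Tie genes, 0.26 for clusterin receptors and chaperones, -0.46 for Dickkopf and Wnt genes and -0.05 for myosin binding proteins. In ventricles (all genes -0.01) they were 0.06 for BMP signalling, -0.18 for the adrenomedullin system, 0.30 for hypoxia targets, -0.14 for angiopoietin and Tie genes, 0.26 for clusterin receptors and chaperones, -0.02 for Dickkopf and Wnt genes and 0.14 for myosin binding proteins. At E13.5 (all genes 0.01) they were 0.15 for BMP signalling, 0.23 for the adrenomedullin system, 0.06 for hypoxia targets, -0.41 for angiopoietin and Tie genes, 0.45 for clusterin receptors and chaperones, 0.05 for Dickkopf and Wnt genes and -0.03 for myosin binding proteins. For atria minus ventricles, the medians of all genes were 0.06 in knockout and 0.04 in wild-type. List medians, in that order, were 0.26 and 0.77 for BMP signalling and 1.05 and 1.03 for the adrenomedullin system. They were -0.32 and -0.11 for hypoxia targets, and 1.08 and 0.54 for angiopoietin and Tie genes. Clusterin receptors and chaperones stood at 1.17 and 0.61, Dickkopf and Wnt genes at -0.31 and 0.29, and myosin binding proteins at -0.45 and 0.02. Of the 25 tested genes of BMP signalling, 0 were called by genotype or by chamber. In P3 atria against E13.5 hearts, 1 was called higher and 2 lower in knockout, and 1 higher and 1 lower in wild-type. Bmp7, another BMP ligand, was lower in atria, with log2 differences of -3.47 in knockout and -4.17 in wild-type (limma adjusted p = 0.000682 and 0.000102), opposite to Bmp10. The coreceptor gene Tgfbr3 was lower (-2.89) and the inhibitor gene Smad7 higher (1.67) in knockout atria, and Chrdl1, a BMP antagonist gene with no signal in wild-type E13.5 hearts, was called higher in wild-type atria (28.2 to 203). In ventricles against E13.5 hearts the target gene Id2 was lower, at -1.23 in knockout and -1.81 in wild-type (limma adjusted p = 0.00722 and 0.000115), the 1 gene called in knockout. In wild-type ventricles Smad9, a receptor-regulated Smad gene, was also lower (-2.72) and Chrdl1 higher. The receptor gene Acvrl1, given as the receptor of BMP10 after its values were seen, averaged 58.1 ± 35.2 in knockout and 51.1 ± 54.9 in wild-type atria (SD, n = 3 each), within the spread of the other groups.

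Of 9 tested genes of the adrenomedullin system, 0 were called by genotype or by chamber. In these comparisons at most 0.199% of all genes were called, so that 0 is near that share for every list. In wild-type, Ramp1, a receptor partner gene of the calcitonin family, was higher than in E13.5 hearts by 2.88 in atria and 2.09 in ventricles (limma adjusted p = 0.000324 and 0.00443), and Calca, the gene of a related peptide, was called lower in ventricles, listed at 0 in all 3 libraries against 11.6 to 100.2 in E13.5 hearts. In knockout ventricles Ackr3, a scavenging receptor gene for adrenomedullin, was lower, at -1.42 (limma adjusted p = 0.00616), and no gene of this list was called in knockout atria. Of 12 hypoxia targets, a group that Adm is known to belong to, 0 were called by genotype or by chamber. The glucose transporter gene Slc2a1 was lower than in E13.5 hearts, at -2.38 in knockout ventricles, -3.81 in wild-type ventricles and -2.58 in wild-type atria, where Pgk1 was lower too (-1.17), whereas Adm was higher in P3 atria.

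Of 5 tested angiopoietin and Tie genes besides Angpt1, 0 were called by genotype or by chamber. Tek, the receptor gene, averaged 820 ± 185 in knockout and 1413 ± 398 in wild-type atria, and Angpt2, the antagonist ligand gene, 86.4 ± 63.3 in knockout and 17.6 ± 25.3 in wild-type atria (SD, n = 3 each), with limma adjusted p of 0.671 and 0.637. Ptprb, a phosphatase gene of the Tie2 pathway, was the 1 gene called against E13.5 hearts, higher in ventricles by 1.34 in knockout and 1.30 in wild-type.

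Of 8 tested clusterin receptors and extracellular chaperones, 0 were called by genotype or by chamber. The lipoprotein receptor gene Vldlr was higher than in E13.5 hearts in both P3 chambers, by 1.28 in knockout and 1.70 in wild-type atria and by 1.27 in knockout and 1.80 in wild-type ventricles, and Apoe was higher in knockout atria (2.30). Of 14 Dickkopf and Wnt genes, 0 were called by genotype or by chamber. Dkk2 was lower in atria than in E13.5 hearts (-4.22 in knockout and -4.21 in wild-type), opposite to Dkk3, Lef1 was lower in knockout atria (-3.82), and Sfrp1 was lower in ventricles (-1.61 in knockout and -2.02 in wild-type). Of 3 tested myosin binding protein genes besides Mybphl, 0 were called by genotype or by chamber. Mybpc1, the slow skeletal form, was lower than in E13.5 hearts in both chambers and both genotypes (0 to 8.04 against 15.5 to 94.7 in E13.5 hearts), and Mybpc2, the fast skeletal form, was higher in knockout atria (4.87) and knockout ventricles (5.32).

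Across the 20 libraries, the genes most like each of the 6 were sought by the Pearson correlation of log2(signal + 1) among 9504 genes, as a description. Bmp10 was most like Myl7, the atrial light chain gene (0.97), and the T-box factor gene Tbx5 (0.95). Mybphl was most like Tbx5 (0.92) and Bmp10 (0.92). Dkk3 was most like Sln, the sarcolipin gene (0.95), and Wisp1 (0.94). Clu was most like the matrix gene Tnc (0.92) and the natriuretic peptide gene Nppa (0.90). Adm was most like Cst3 (0.89) and Igsf9b (0.87), and Angpt1 was most like the relaxin receptor gene Rxfp1 (0.89) and Pla2g7 (0.84). Among the 6 themselves, Bmp10, Dkk3 and Mybphl ran at 0.90 to 0.92 with each other, Angpt1 and Bmp10 at 0.82, Adm and Clu at 0.82 too, and Adm and Angpt1 at 0.16. These libraries share pups, litters and 3 tissues.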

How the data were processed

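RNA was isolated with RNeasy Micro columns and turned into SMART-Seq2 libraries (labels' protocols). Per the submitters' processing notes, which give no roles, the tools were STAR 2.5.1, bcl2fastq 2.2 and DESeq2, and the build was mm10. The deposited values are a normalized linear signal per gene in 1 table made by the authors, and the normalization is not given in the sources used here. Low values of simple gene types were near-whole multiples of 1 read (0.562 to 2.21 signal), from which reads were estimated, and depth limits the ventricular values of Bmp10 and Mybphl. SDs and n describe libraries.

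Genes with at least 10 in at least 3 libraries (18125) were tested on log2(signal + 1), a scale that understates changes of low genes, with limma 3.58.1 in R 4.3.3 (variance trend, two-sided, Benjamini-Hochberg over all genes, threshold 0.05). Genotype and stage used 1 fit over 6 groups. Chambers and their interaction with genotype used the 12 P3 libraries with a pup term. Replicate numbers pair genotypes by litter and preparation date, per the labels. Same-numbered libraries deviated together in atria (correlations 0.212, 0.255 and 0.638) but weakly in ventricles (0.0200 to 0.0658) and E13.5 hearts (-0.0159 to 0.0159). In atria, differently numbered libraries of replicates 1 and 2 did so as well (0.167 and 0.225). Those of the third litter against the others ran at -0.411 to -0.322, so that mainly the third litter stood apart. E13.5 replicates 1 to 3 were prepared in an earlier year than E13.5 replicate 4 and all P3 libraries, per the labels. Alternatives were pseudocounts, filters, scalings, variance models, blocks and left-out libraries. The fit was tested on simulated data. Named genes were the 6 genes, list genes called in a comparison (at most 4 by p, or up to 2 as values where none was), and the 2 genes most like each. The 6 genes and the lists were chosen with earlier results of these data known. Positions are from GENCODE M21.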

Additional observations from a re-analysis of the deposited data

Results flagged for a closer look

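Angpt1, the vessel-stabilising ligand, is listed here because its pairs of 1 replicate number moved in opposite ways in 2 tissues. Each E13.5 pair also differed in Xist, so that sex and genotype cannot be told apart in it. Knockout lay above wild-type in all 4 E13.5 pairs and below it in all 3 P3 atrial pairs, and the mean log2 difference in atria minus that at E13.5 was -0.73. The difference was not tested, and neither of the 2 differences passed limma's test on its own (0.36 at E13.5 and -0.37 in atria). Among 12 groups of 4 libraries, all at E13.5, 0 had a library standing apart. This rule was not applied to the P3 groups, which hold 3 libraries each.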

How the results depend on the processing

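No alternative called any of the 6 genes by genotype or in the interaction. With the replicate block, limma called 30 genes in atria in place of 5 and 2 in ventricles in place of 0, and 0 of the 6. For atria against ventricles, 2 of the 6 were called in each genotype. In knockout pups 4 were called with a pseudocount of 10, with a floor of 50 or with array weights, 5 with no replicate block, 1 without the third litter, and 0 with no filter, without a variance trend or without both pups 2. In wild-type pups 4 were called with array weights or no replicate block, 1 without the third litter, and 0 with no filter, without a variance trend, or without wild-type pup 2 or both pups 2. Leaving out single pups gave 0 to 2 in each genotype. For P3 atria against E13.5 hearts, 3 in place of 5 were called in wild-type under scaling by library total or without a variance trend, and single libraries gave 3 to 5 in knockout and 2 to 5 in wild-type. For P3 ventricles against E13.5 hearts, 1 in place of 2 was called in knockout without a variance trend and 3 without both atrial libraries of the third litter. In wild-type 1 was called without wild-type pup 2 or both pups 2, 3 without both atrial libraries of the third litter or under scaling by library total, and 4 without the third litter. Single libraries gave 1 to 2 in knockout and 1 to 3 in wild-type. Genes called over all genes ranged from 0 to 219 (main 36) in knockout and 0 to 272 (main 16) in wild-type pups between chambers. Against E13.5 they ranged from 248 to 1016 (508) in knockout and 608 to 1233 (997) in wild-type atria, and from 264 to 1126 (497) in knockout and 467 to 1714 (922) in wild-type ventricles.

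Directions that turned were all of differences that passed no test. The interaction of Mybphl was 0.0051 with a pseudocount of 10, 0.44 without wild-type pup 2 and 1.84 without both pups 2, and that of Angpt1 was -0.18 without the third litter. Array weights gave -0.0501 for Dkk3 at E13.5. Without wild-type pup 2 Mybphl was -0.17 in atria and -0.62 in ventricles. Without both pups 2 Adm was 0.21 in atria, and Dkk3 was -0.0073 and Mybphl -1.63 in ventricles. Without the third litter Angpt1 was 0.0010 and Bmp10 0.34 in ventricles, with and without the replicate block. Leaving out single libraries gave, at E13.5, -1.11 to 0.31 for Adm, -0.15 to 0.34 for Bmp10 and -0.20 to 0.16 for Dkk3. In atria it gave -1.10 to 0.36 for Adm, -0.70 to 0.14 for Angpt1, -0.33 to 0.0254 for Dkk3 and -0.67 to 0.92 for Mybphl. In ventricles it gave -1.29 to 0.21 for Bmp10 and -0.62 to 1.5 for Mybphl, and for the interaction -1.14 to 0.0278 for Adm and -1.81 to 1.05 for Mybphl. The cause was not tested.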
